A study of Mus musculus with 11 samples.

Results

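Muscle makes some contractile proteins in one form before or around birth and in another form in the adult. Described here are 5 genes of the earlier kind: Myh3 (embryonic myosin heavy chain), Myh8 (neonatal, or perinatal, myosin heavy chain), Myl4 (the embryonic and atrial essential myosin light chain), Actc1 (cardiac alpha-actin) and Tnnt2 (cardiac troponin T). They were picked by name from the expression table and are 5 of its 18269 genes. All 5 passed the expression filter, at least 1 CPM (counts per 1000000 reads) in at least 3 libraries, which 13187 genes passed.

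Myosin heavy chains are the motors of the sarcomere, the essential light chain stiffens the motor's lever arm, actin forms the thin filament on which the motor pulls, and troponin T anchors the calcium switch to that filament. A developing mouse fibre is first built with the embryonic and neonatal isoforms, which adult isoforms replace around and after birth. When adult muscle is damaged, satellite cells (the stem cells of muscle) divide, fuse into new fibres and pass through the developmental isoforms again, so the genes serve as marks of young or regenerating fibres. Low expression is also known in the intrafusal fibres of muscle spindles, and Actc1, Tnnt2 and Myl4 are major isoforms of the adult heart or its atria.

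RNA was sequenced from the tibialis anterior, which lies at the front of the lower leg and holds mostly fast fibres, of C57BL/6 mice at 21 to 24 months of age. The groups were mice given young serum from which extracellular vesicles (EVs, membrane-bound particles shed by cells) had been depleted, with 3 libraries, mice given young serum with its EVs, with 4 libraries, and mice given saline, with 4 libraries. Old age, strain and muscle were thus shared by all groups. The labels name an EV injection and an injury model, but give neither the kind of injury, nor the days between injury, injection and collection, nor whether every muscle was injured. They also do not say that each library came from its own animal, so the spread that the p-values rest on may be technical rather than between animals. Each library is called below by its group and the number in its title.

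Depth was 36.4 to 42.3 times 1000000 reads per library, as read from the CPM worth of 1 read. Fast-muscle markers (Myh4, Pvalb, Ckm, Atp2a1 and Actn3) summed to 115877 to 122417 CPM in EV-depleted serum, 136062 to 155194 CPM in young serum and 115670 to 148519 CPM in saline libraries. Each library thus held abundant fast-muscle RNA, but these sums cannot tell the tibialis anterior from another fast muscle. A few libraries stood apart from the rest of their group. Saline 6 had 944 CPM of the slow myosin gene Myh7, against 43.2 to 67.8 CPM in the other saline libraries. Saline 4 had 2684 CPM over 5 adipocyte genes, against 80.3 to 325 CPM in the other 10 libraries. Young serum 3 had the highest level of Myh3, Myh8 and Tnnt2 among the 11 libraries. Some member differences, and the gene lists that these libraries dominate, are also given without 1 or more of them.

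On mouse build mm10, with GENCODE M21 annotation, Myh3 (ENSMUSG00000020908.14) lies at chr11:67078300-67102291 on the plus strand and Myh8 (ENSMUSG00000055775.16) at chr11:67277124-67308634, also on the plus strand. They flank the adult fast genes of the same myosin cluster, in the order Myh3, Myh2, Myh1, Myh4, Myh8 and Myh13. Myh8 and its neighbours have long identical stretches, and a short read from such a stretch cannot be assigned to a gene. Of all 50-base windows of the 6149-base Myh8 transcript, 21.4% were found unchanged in a transcript of another gene, 11.8% in Myh2, 9.56% in Myh1 and 9.31% in Myh4. For windows of 100 bases the share was 6.61%. The share was 4.81% at 50 bases and 1.15% at 100 bases for Myh3, and 0% at both lengths for Myl4, Actc1 and Tnnt2. The coding sequence of Myh8 was 88.1% identical to that of Myh4, 89.3% to that of Myh1 and 81.1% to that of Myh3. How the authors' counting treated reads with several matches, and the read length, are not given in the sources used here, so Myh8 levels, and to a lesser extent those of Myh3, are uncertain in this way. For each of Myh8 and Myh3, the longest run shared with each of the adult fast genes Myh1, Myh2 and Myh4, and that shared by the pair, was found. They were 164 bases for Myh8 with Myh4, 160 with Myh1 and 155 with Myh2, the last lying inside the Myh1 run, then 94 bases for Myh3 with Myh1, 86 with Myh2, 77 with Myh8 and 68 with Myh4. A choice of 5 is shown because reads inside them carry no mark of their origin. They were read from GENCODE M21 transcripts on the coding strand, 5′ to 3′, and no base is in capitals since every base is shared:
Myh8 coding bases 2950 to 3113, identical to Myh4 coding bases 2953 to 3116: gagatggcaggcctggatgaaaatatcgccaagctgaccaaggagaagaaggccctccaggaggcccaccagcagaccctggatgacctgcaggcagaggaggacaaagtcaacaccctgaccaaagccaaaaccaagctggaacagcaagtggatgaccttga
Myh8 coding bases 2812 to 2971, identical to Myh1 coding bases 2824 to 2983: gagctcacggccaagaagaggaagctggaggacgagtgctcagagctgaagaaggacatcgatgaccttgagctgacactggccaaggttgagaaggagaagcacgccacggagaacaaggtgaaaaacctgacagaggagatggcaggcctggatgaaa
Myh3 coding bases 5345 to 5438, identical to Myh1 coding bases 5363 to 5456: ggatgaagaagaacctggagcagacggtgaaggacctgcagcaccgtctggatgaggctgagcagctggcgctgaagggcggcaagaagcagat
Myh3 coding bases 3973 to 4058, identical to Myh2 coding bases 3991 to 4076: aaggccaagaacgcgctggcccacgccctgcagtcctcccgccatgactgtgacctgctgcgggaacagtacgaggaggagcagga
Myh3 coding bases 4048 to 4124, identical to Myh8 coding bases 4054 to 4130: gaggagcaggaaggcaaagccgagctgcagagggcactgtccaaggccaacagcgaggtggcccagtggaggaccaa

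Myl4 (ENSMUSG00000061086.12) lies at chr11:104550663-104595753 on the plus strand, Actc1 (ENSMUSG00000068614.7) at chr2:114047282-114053548 on the minus strand and Tnnt2 (ENSMUSG00000026414.13) at chr1:135836354-135852260 on the plus strand. These genes share only shorter identical runs with the adult counterparts compared. The longest run shared by Actc1 with Acta1, the adult skeletal actin gene, was 29 bases at 86.3% coding identity. Myl4 shared at most 25 bases with Myl1 and 29 bases with Myl3, and Tnnt2 at most 17 bases with Tnnt3. The non-coding gene A530058N18Rik spans all 6267 bases of Actc1 on the other strand, introns included. In the same way Gm22000 overlaps 7740 bases and Gm11665 overlaps 989 bases of Myl4 on the other strand. The sources used here do not say whether strand was used in counting. The Actc1 and Myl4 transcripts shared 0% of their 50-base windows with transcripts of other genes, on either strand. Reads from introns were not examined.

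No member passed the test in any comparison. Differences were fitted on log2(CPM + 1) with limma over all 11 libraries and adjusted by the Benjamini-Hochberg method over all 13187 genes, with 0.05 as the threshold. In young serum against saline 0 of 5 members passed, where 0% of all genes did. The counts were also 0 of 5 in EV-depleted serum against saline, where 0% of all genes passed, and 0 of 5 in EV-depleted serum against young serum, where 0% of all genes passed. At an unadjusted p under 0.05, 1 of 5 members (Myh8, higher) passed in young serum against saline, where 21.9% of all genes did so and 10.5% in the higher direction, and 0 of 5 passed in both other comparisons, where 12.1% and 2.23% of all genes did. The groups overlapped for all 5 members in all 3 comparisons. Over all genes they did not overlap for 12.2%, 7.42% and 6.11%, so 0 of 5 is near the share over all genes. Both serum groups were compared with the same saline libraries.

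**Figure D1:**
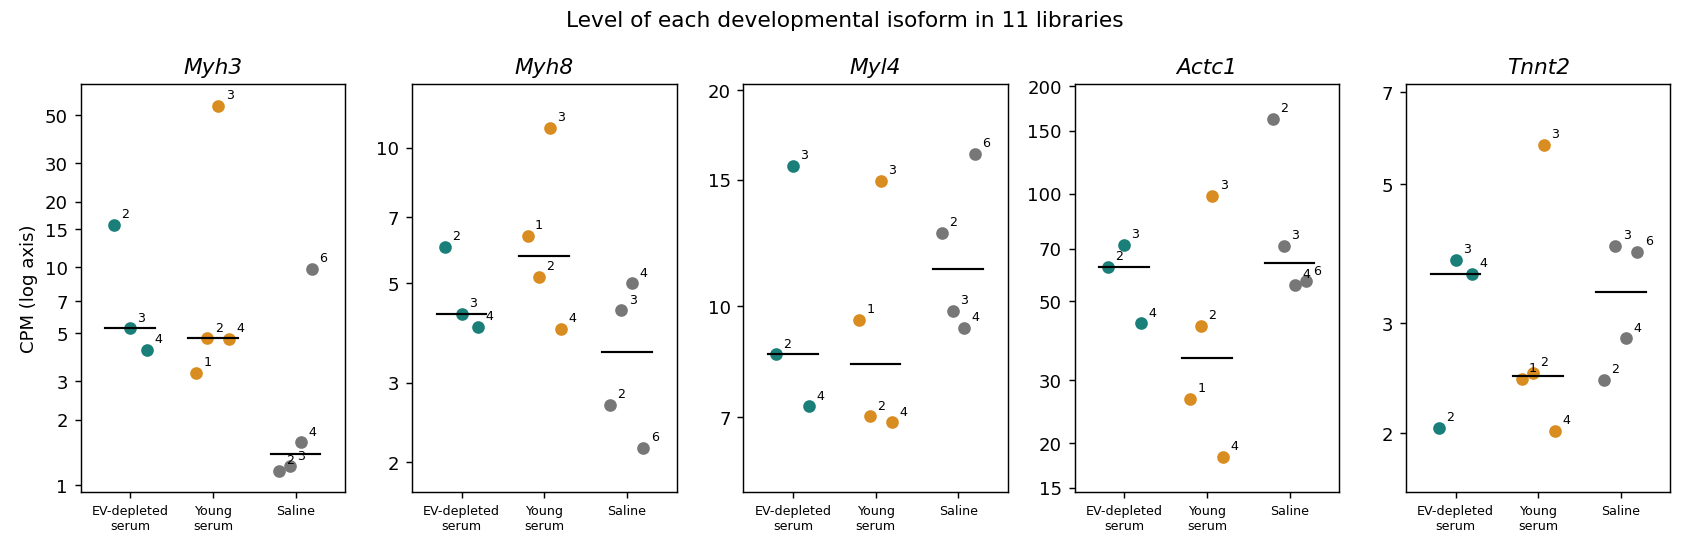
CPM of each member on a log axis, with a separate scale per gene, in EV-depleted serum (n = 3), young serum (n = 4) and saline (n = 4) libraries. Points are libraries with their replicate numbers and lines are group medians. Myh3 sat at 55.3 CPM in young serum 3 and at 9.85 CPM in saline 6, and the groups overlap for every member.

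Myh3 showed the widest spread of the 5 genes. Its level was 15.7, 5.26 and 4.195 CPM in EV-depleted serum 2, 3 and 4. In young serum 1, 2, 3 and 4 it was 3.28, 4.72, 55.3 and 4.72 CPM, and in saline 2, 3, 4 and 6 it was 1.17, 1.22, 1.57 and 9.85 CPM. Saline 2, 3 and 4 were thus the lowest of all 11 libraries, and saline 6 was higher than every library but EV-depleted serum 2 and young serum 3. Group means were 8.37 ± 6.33 CPM in EV-depleted serum (SD, n = 3), 17.0 ± 25.5 CPM in young serum (SD, n = 4) and 3.45 ± 4.27 CPM in saline (SD, n = 4). The highest library had 47.3 times the level of the lowest, the equivalent of 2122 against 46 reads.

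The fitted fold for Myh3 was 2.77 in young serum over saline (95% interval 0.831 to 9.22) with an adjusted p of 0.284, a log2 difference of 1.47 ± 0.79 (SE). In EV-depleted serum over saline it was 2.39 (0.653 to 8.78), with an adjusted p of 0.499. In EV-depleted serum over young serum it was 0.865 (0.236 to 3.17), with an adjusted p of 0.99998. These intervals leave room for a several-fold difference in either direction between the 2 sera. Single libraries set much of the size. Without young serum 3 the log2 difference of young serum from saline was 0.61, and without saline 6 it was 2.03. Without EV-depleted serum 2 the log2 difference of EV-depleted serum from saline was 0.74, and without saline 6 it was 1.82. With saline 6 left out, Myh3 was higher in every young serum and every EV-depleted serum library than in the remaining saline libraries, and it was the 1 member of 5 for which this held. The same was true, in the higher direction, of 6.39% of all genes for young serum and 4.87% for EV-depleted serum. Saline 6 was the highest saline library for Myh3 and alone made the groups overlap, so leaving it out fixed this outcome. For most genes that library was not picked in this way, so these shares are not a like background. Between EV-depleted serum and young serum the log2 difference of Myh3, -0.21, became 0.65 without young serum 3.

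**Figure D2:**
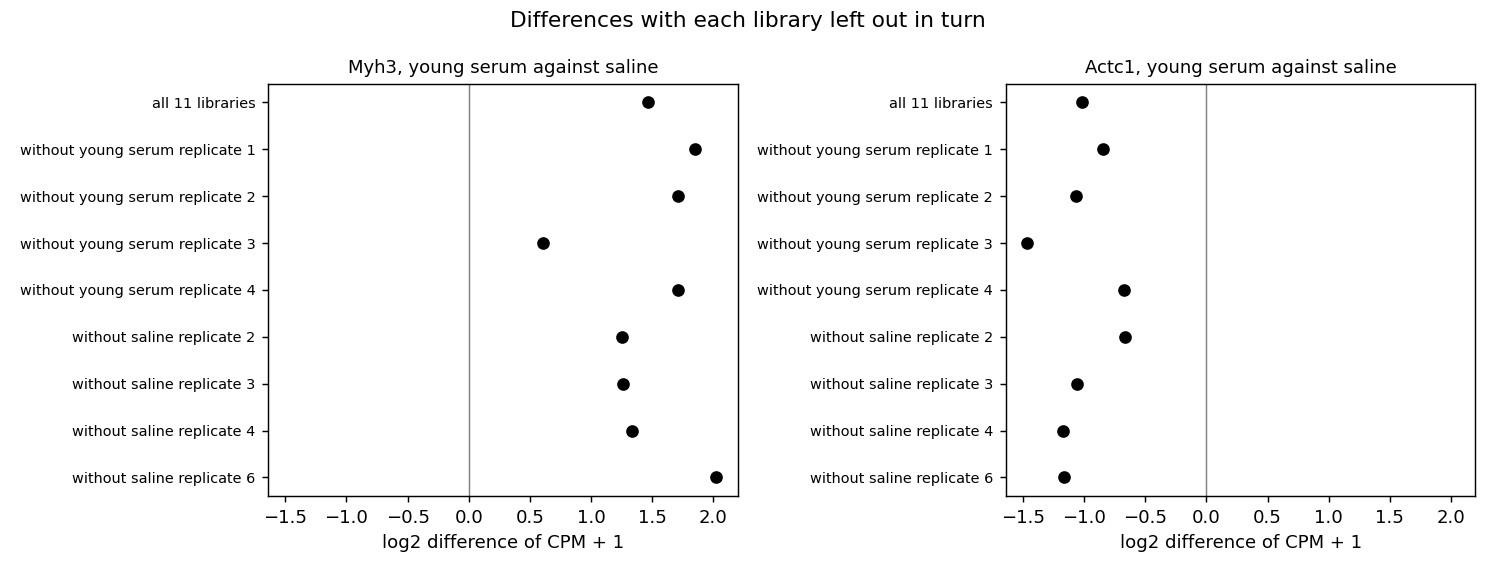
Log2 differences of CPM + 1 between young serum and saline for Myh3 and Actc1, with all 11 libraries and with each young serum or saline library left out in turn. Points are fitted values, and the vertical line marks no difference. Myh3 ranged between 0.61 and 2.03 and Actc1 between -1.47 and -0.67, and neither changed sign.

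Myh8, which follows Myh3 in developing and regenerating fibres, varied less. It measured 6.01, 4.27 and 3.996 CPM in the EV-depleted serum libraries 2, 3 and 4. It measured 6.36, 5.16, 11.1 and 3.95 CPM in young serum 1 to 4 and 2.68, 4.35, 4.99 and 2.15 CPM in saline 2, 3, 4 and 6. Young serum 3 was again the highest library and saline 6, among the 3 highest for Myh3, was the lowest. Means were 4.76 ± 1.09 CPM in EV-depleted serum (SD, n = 3), 6.63 ± 3.11 CPM in young serum (SD, n = 4) and 3.54 ± 1.35 CPM in saline (SD, n = 4).

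In young serum Myh8 was 1.64-fold the saline level (95% interval 1.07 to 2.53), with an adjusted p of 0.195 from limma. Its log2 difference of 0.72 did not reach the threshold after adjustment, and was 0.47 without young serum 3, with an adjusted p of 0.307. The same difference was 0.56 without saline 6 and 0.87 without saline 4. In EV-depleted serum it was 1.30-fold the saline level (0.814 to 2.07), with an adjusted p of 0.562, and 0.790-fold the young serum level (0.496 to 1.26), with an adjusted p of 0.99998. Since Myh8 shares 21.4% of its 50-base windows with other genes and Myh4 was measured at 29701 to 69181 CPM, part of the Myh8 level may be set by how shared reads were assigned, which was not tested. Over the 11 libraries the log2 levels of Myh8 and Myh4 had a Pearson r of 0.39 and a Spearman rho of 0.14, and r was -0.089 without young serum 3 and saline 6.

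Myl4, the light chain of embryonic muscle and of the atria, was the least variable member, its highest library at 2.37 times its lowest. It measured 8.57, 15.7 and 7.25 CPM in EV-depleted serum 2, 3 and 4. It measured 9.58, 7.02, 14.9 and 6.89 CPM in young serum 1 to 4, and 12.6, 9.85, 9.32 and 16.3 CPM in saline 2, 3, 4 and 6. EV-depleted serum 3, young serum 3 and saline 6 were the highest libraries of their groups, at similar levels. Means were 10.5 ± 4.54 CPM in EV-depleted serum (SD, n = 3), 9.61 ± 3.76 CPM in young serum (SD, n = 4) and 12.03 ± 3.20 CPM in saline (SD, n = 4). The fold was 0.797 in young serum over saline (0.521 to 1.22; adjusted p = 0.489) and 0.859 in EV-depleted serum over saline (0.543 to 1.36; adjusted p = 0.729). For EV-depleted serum over young serum it was 1.08 (0.682 to 1.70; adjusted p = 0.99998). The direction of this last value depended on single libraries, being a log2 difference of 0.11 with all libraries and -0.19 without EV-depleted serum 3. For young serum against saline the log2 difference of -0.33 was -0.54 without young serum 3 and -0.18 without saline 6.

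Actc1, the main actin of the heart and of embryonic skeletal muscle, had the highest median CPM of the members. It measured 62.3, 71.8 and 43.3 CPM in EV-depleted serum 2, 3 and 4. It measured 26.6, 42.6, 98.7 and 18.3 CPM in young serum 1 to 4 and 162, 71.3, 55.5 and 56.8 CPM in saline 2, 3, 4 and 6. Of the young serum libraries, 1, 2 and 4 were the 3 lowest of all 11, while young serum 3 was above all but saline 2. Means were 59.1 ± 14.5 CPM in EV-depleted serum (SD, n = 3), 46.5 ± 36.2 CPM in young serum (SD, n = 4) and 86.4 ± 50.8 CPM in saline (SD, n = 4).

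In young serum Actc1 was at 0.495 of the saline level (95% interval 0.243 to 1.01), with an adjusted p of 0.230. The log2 difference of -1.01 ± 0.47 (SE) was -1.47 without young serum 3, -0.68 without young serum 4 and -0.67 without saline 2, with adjusted p-values of 0.193 to 0.478 over the libraries left out. In EV-depleted serum Actc1 was at 0.748 of the saline level (0.347 to 1.61; adjusted p = 0.691), and the log2 difference of -0.42 was -0.07 without saline 2. EV-depleted serum over young serum gave 1.51 (0.702 to 3.25; adjusted p = 0.99998). Actc1 and the myosin heavy chain genes therefore had opposite signs in both serum comparisons with saline, each within the spread of the libraries.

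Tnnt2, the troponin T of heart and of embryonic skeletal muscle, had the lowest median CPM of the members. It measured 2.04, 3.79 and 3.598 CPM in EV-depleted serum 2, 3 and 4. It measured 2.45, 2.50, 5.77 and 2.02 CPM in young serum 1 to 4 and 2.44, 3.98, 2.84 and 3.90 CPM in saline 2, 3, 4 and 6. Young serum 3 was the highest library, and the other young serum libraries lay near or below saline 2, the lowest saline library. Means differed by less than their SDs, at 3.14 ± 0.959 CPM in EV-depleted serum (SD, n = 3), 3.18 ± 1.74 CPM in young serum (SD, n = 4) and 3.29 ± 0.770 CPM in saline (SD, n = 4). The fold was 0.935 in young serum over saline (0.630 to 1.39; adjusted p = 0.846) and 0.959 in EV-depleted serum over saline (0.626 to 1.47; adjusted p = 0.929). For EV-depleted serum over young serum it was 1.02 (0.669 to 1.57; adjusted p = 0.99998). The log2 difference of young serum from saline, -0.10, was -0.35 without young serum 3 and 0.03 without young serum 4.

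**Figure D3:**
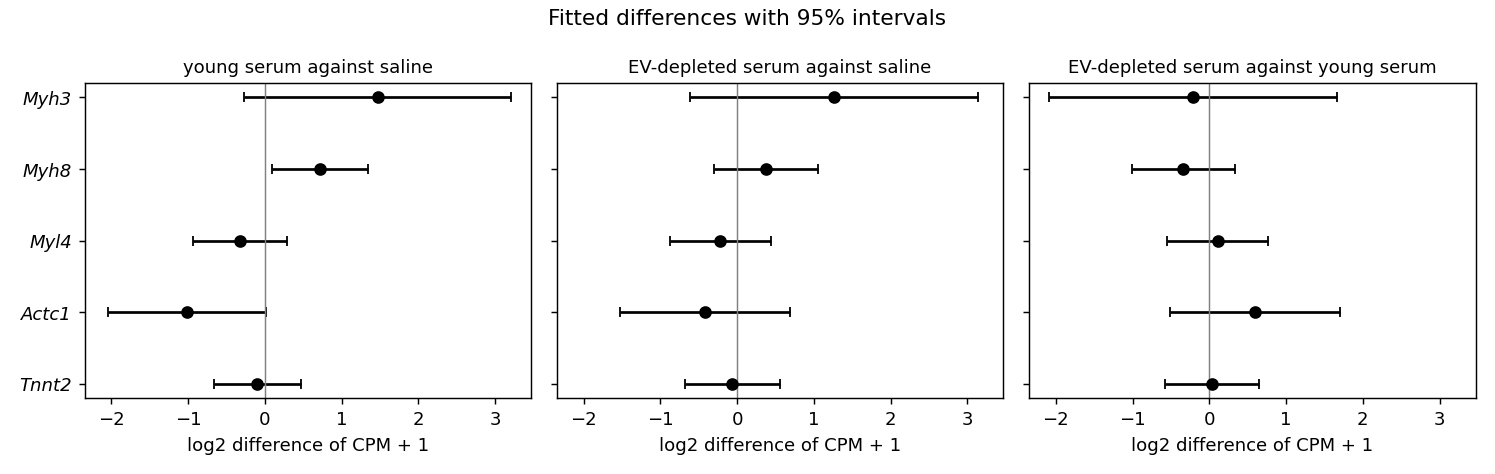
Fitted log2 differences of CPM + 1 with 95% intervals for the 5 members in young serum against saline, EV-depleted serum against saline and EV-depleted serum against young serum. Points are limma estimates over 11 libraries, and positive values are higher in the group named first. The interval of Myh8 in young serum against saline (0.09 to 1.34) does not include 0, and the 14 others do.

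The median log2 difference over the members was -0.10 in young serum against saline, -0.06 in EV-depleted serum against saline and 0.04 in EV-depleted serum against young serum. Over all tested genes the medians were -0.02, -0.0025 and 0.0049. In both comparisons with saline 2 members were higher (Myh3 and Myh8) and 3 lower (Myl4, Actc1 and Tnnt2), and in EV-depleted serum against young serum 3 were higher and 2 lower. The members did not share a direction as a set.

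Across libraries the 5 genes did not follow a single order either. Young serum 3 was the highest library for Myh3, Myh8 and Tnnt2, rank 2 for Actc1 and rank 3 for Myl4. Young serum 4, of the same group, was the lowest of all 11 for Myl4, Actc1 and Tnnt2. Saline 6 was highest for Myl4 and lowest for Myh8, and saline 2 was highest for Actc1 and lowest for Myh3. Correlations of log2 levels over the 11 libraries, which share their groups and sequencing, are given as descriptions. Myl4 and Actc1 had a Pearson r of 0.62 and a Spearman rho of 0.71, and r was 0.57 without young serum 3. Myl4 and Tnnt2 had an r of 0.62 and a rho of 0.64, and r was 0.53 without that library. For the 2 myosin heavy chain genes r was 0.57 and rho 0.30, and r was 0.07 without young serum 3. Myh8 and Actc1 had an r of -0.04, and -0.40 without young serum 3. Over all 11 libraries r between a myosin gene and any of the other 3 members lay between -0.09 and 0.43. Among those 3 members r lay between 0.43 and 0.62, so the ranges met. Without young serum 3, a library picked out by these same levels, they were -0.56 to 0.03 and 0.30 to 0.57.

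**Figure D4:**
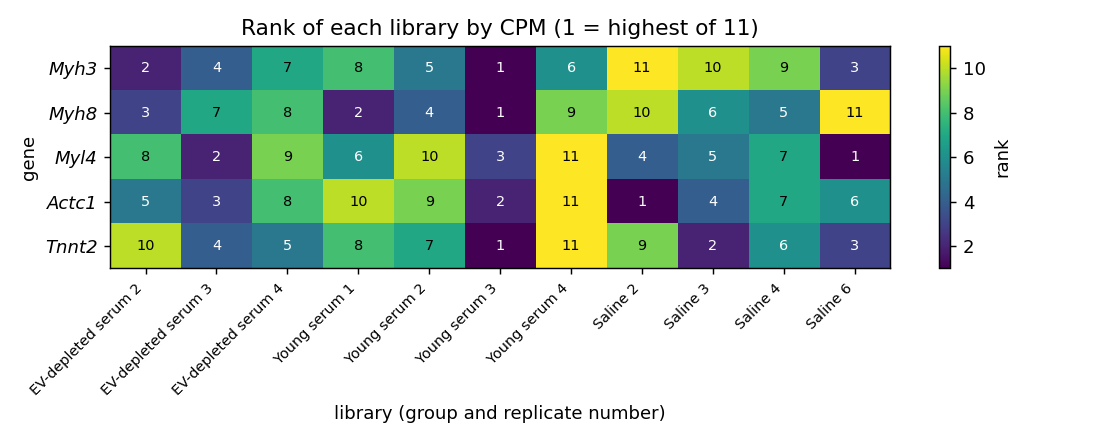
Rank of each library by CPM for each member, from 1 (highest, dark) to 11 (lowest, light), with EV-depleted serum libraries first, then young serum, then saline. Young serum 3 ranks 1 to 3 for all 5 members, young serum 4 ranks 11 for Myl4, Actc1 and Tnnt2, and saline 2 ranks 1 for Actc1 and 11 for Myh3.

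Set per length of transcript, so that genes can be compared, the members stood far below the adult isoforms. Median levels over the 11 libraries were 38.6 CPM per kb for Actc1, 10.2 for Myl4, 2.36 for Tnnt2, 0.782 for Myh3 and 0.707 for Myh8. Actc1 exceeded Myl4, and Myl4 exceeded Tnnt2, in 11 of 11 libraries, and the ranges of Myl4 and Tnnt2 did not overlap. Tnnt2 exceeded Myh3 in 9 of 11 libraries and Myh3 exceeded Myh8 in 6 of 11, so the last places in the order are within the spread. Per kb, the fast adult myosin gene Myh4 was at 952 to 47023 times the level of Myh3 and 4854 to 20920 times that of Myh8. The fast light chain gene Myl1 was at 428 to 1164 times Myl4, Acta1 at 217 to 1915 times Actc1, and the fast troponin T gene Tnnt3 at 3411 to 9521 times Tnnt2. Relative to all tested genes, median CPM placed Actc1 at percentile 84.5, Myl4 at 44.3, Myh3 at 29.2, Myh8 at 27.6 and Tnnt2 at 19.97.

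As a share of its gene family per kb, each member was a small fraction in every library. The families were Myh1, Myh2, Myh3, Myh4, Myh7 and Myh8 for the heavy chains, Myl1, Myl3 and Myl4 for the light chains, Acta1 and Actc1 for actin, and Tnnt1, Tnnt2 and Tnnt3 for troponin T. Myh3 made up 0.0151 ± 0.0109% of sarcomeric myosin heavy chain RNA in EV-depleted serum (SD, n = 3), 0.0284 ± 0.0440% in young serum (SD, n = 4) and 0.00900 ± 0.0128% in saline (SD, n = 4). Actc1 made up 0.186 ± 0.0240% of sarcomeric actin RNA in EV-depleted serum (SD, n = 3), 0.135 ± 0.0919% in young serum (SD, n = 4) and 0.257 ± 0.135% in saline (SD, n = 4). For both genes the library that was highest in CPM was also highest in share, young serum 3 at 0.0943% for Myh3 and saline 2 at 0.459% for Actc1. Myl4 averaged 0.139% in EV-depleted serum, 0.120% in young serum and 0.137% in saline libraries. Mean shares of Tnnt2 were 0.0155%, 0.0166% and 0.0143% in the same groups, and those of Myh8 were 0.00847%, 0.0105% and 0.00734%.

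**Figure D5:**
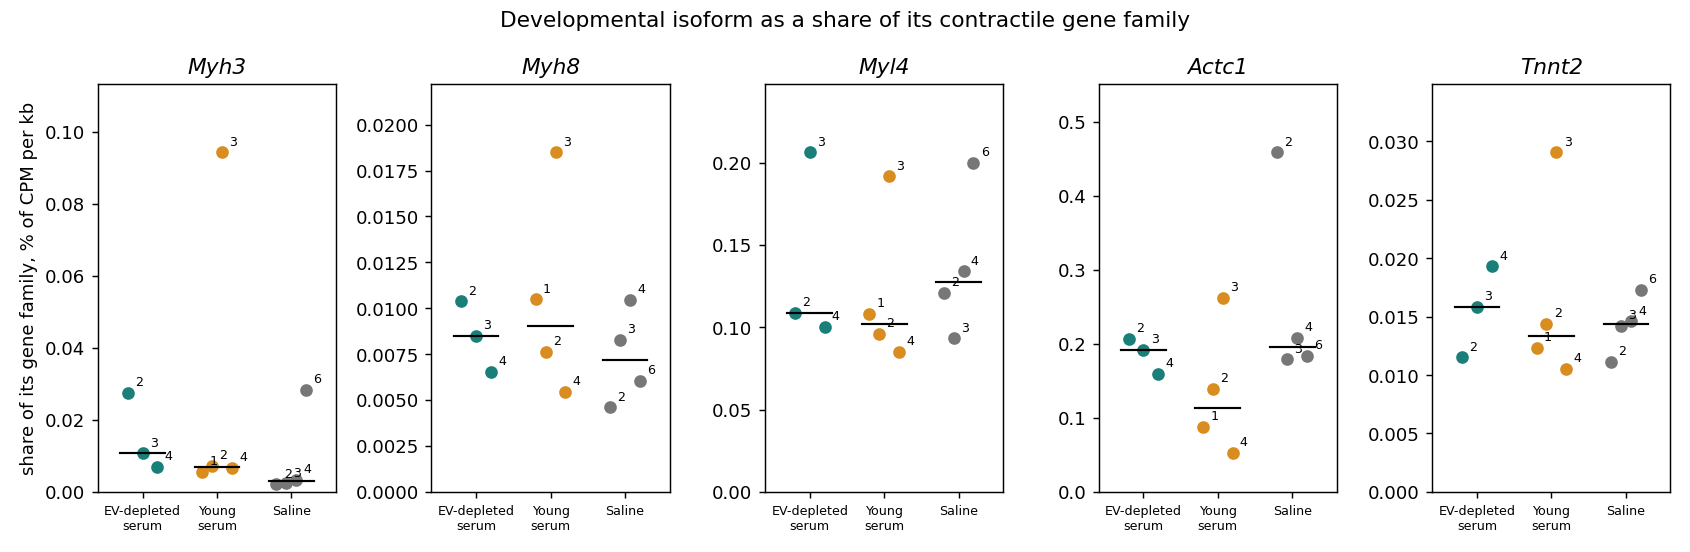
Share of each member in the summed CPM per kb of its contractile gene family, in percent, on a linear axis that starts at 0 with a separate scale per gene. Points are EV-depleted serum (n = 3), young serum (n = 4) and saline (n = 4) libraries with replicate numbers, and lines are group medians. Myh3 reached 0.0943% in young serum 3, and Actc1 0.459% in saline 2.

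The slow-fibre genes also differed widely between libraries, in part alongside the members. Myh7 measured 340, 563 and 512 CPM in EV-depleted serum 2, 3 and 4, 111, 192, 523 and 22.0 CPM in young serum 1 to 4, and 48.8, 43.2, 67.8 and 944 CPM in saline 2, 3, 4 and 6. The 2 libraries highest for Myh7 within young serum and saline, young serum 3 and saline 6, were also the highest of their groups for Myh3, which was not so in EV-depleted serum. Over the 11 libraries Myh3 and Myh7 had a Pearson r of 0.64 and a Spearman rho of 0.72. The slow troponin T gene Tnnt1 had an r of 0.54 with Tnnt2, and the slow light chain gene Myl3 an r of 0.53 with Myl4. Without young serum 3 and saline 6, over the remaining 9 libraries, r was 0.58 for Myh3 with Myh7, 0.39 for Tnnt2 with Tnnt1 and 0.27 for Myl4 with Myl3. The part of slow-fibre content in the levels of the members was not tested.

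Of 15 adult sarcomere genes, 0 passed the test in each comparison. Young serum against saline had 5 higher and 10 lower, with a median log2 difference of -0.36. Without saline 6 the same comparison had 9 higher and 6 lower, with a median of 0.50, and the slow genes Myl3 and Tnnt1 were at 0.72 and 0.64, against -0.36 and -0.44 with all libraries. The largest moderated t values there belonged to fast-fibre genes, Mylpf (a regulatory light chain) at -0.69, Tnnc2 (troponin C) at -0.45 and Tnni2 (troponin I) at -0.47 on the log2 scale, each with an adjusted p of 0.180 or more. EV-depleted serum against saline had 9 higher and 6 lower with a median of 1.07, led by the fast 2X and 2A myosin genes Myh1 at 1.47 and Myh2 at 1.66, with Mylpf at -0.60, and without saline 6 it had 8 higher and 7 lower with a median of 1.71. Without saline 4 the median was 0.51. EV-depleted serum against young serum had 11 higher and 4 lower with a median of 0.82, led by Myh2 at 1.33, Myh1 at 0.82 and Tnnt1 at 2.01. Myh1 measured 3730, 3597 and 3434 CPM in EV-depleted serum 2, 3 and 4. In young serum 1 to 4 it measured 1274, 3366, 3662 and 1094 CPM, and in saline 2, 3, 4 and 6 985, 1317, 1016 and 2103 CPM. The groups did not overlap for Myh1 between EV-depleted serum and saline, yet the adjusted p was 0.360. Acta1, the adult partner of Actc1, lay between 26113 and 38992 CPM in the 11 libraries.

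Genes of muscle stem cells, differentiation and fusion were measured as the nearest other readout of new fibre formation. Of 18 such genes 14 passed the filter, and 0 of 14 passed the test in each comparison. Young serum against saline had 10 higher and 4 lower (median log2 difference 0.21), EV-depleted serum against saline had 8 and 6 (0.14), and EV-depleted serum against young serum had 7 and 7 (-0.02). Mef2c, a transcription factor of muscle differentiation, measured 633 ± 130 CPM in EV-depleted serum (SD, n = 3), 596 ± 34.3 CPM in young serum (SD, n = 4) and 382 ± 103 CPM in saline (SD, n = 4). Its log2 difference was 0.67 in young serum against saline, with an adjusted p of 0.180, and 0.74 in EV-depleted serum against saline, with an adjusted p of 0.328. Without saline 2 the value in young serum against saline was 0.84, with an adjusted p of 0.0391, a call that equal weights over all 11 libraries did not give. With all 11 libraries weighted by their quality (array weights) Mef2c was called in both serum groups against saline, at 0.72 in young serum (adjusted p = 0.00577) and 0.71 in EV-depleted serum (adjusted p = 0.00893). These calls were not particular to Mef2c. Leaving out saline 2 called 251 of 13187 genes in young serum against saline. Array weights called 3441 of 13187 there and 1794 of 13187 in EV-depleted serum against saline. The next genes by moderated t in young serum against saline were Ncam1 (an adhesion molecule of satellite cells and denervated fibres) at 0.41 and Pax7 (the satellite cell transcription factor) at 0.40. For EV-depleted serum against saline they were Ncam1 at 0.45 and Nes (nestin, an intermediate filament of young fibres) at 0.41. Between EV-depleted serum and young serum they were Igf2 at -0.40, Myod1 at -0.31 and Cdkn1a at 0.36. None of these passed the test, with adjusted p-values of 0.198 or more.

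Myod1 and Myog, the transcription factors that commit and differentiate myoblasts, were read alongside the members. Myod1 averaged 29.7 ± 3.18 CPM in EV-depleted serum (SD, n = 3), 37.1 ± 3.77 CPM in young serum (SD, n = 4) and 31.6 ± 6.20 CPM in saline (SD, n = 4). Myog measured 4.33, 3.79 and 3.96 CPM in EV-depleted serum 2, 3 and 4, 3.11, 4.39, 5.61 and 2.32 CPM in young serum 1 to 4, and 5.16, 3.64, 4.42 and 4.36 CPM in saline 2, 3, 4 and 6. Its highest libraries, young serum 3 and saline 2, were also the highest pair for Actc1, and its lowest, young serum 4, was the lowest for Actc1. Chrng, the fetal subunit of the acetylcholine receptor, averaged 0.238 CPM in EV-depleted serum, 0.0838 CPM in young serum and 0.107 CPM in saline libraries, and did not pass the filter.

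The genes that most resembled each member over the 11 libraries were ranked by the Pearson r of log2(CPM + 1), as a description. They are the highest of many genes over few libraries, so a high r is not by itself a sign of a link. For Myh3 they were Vwa3b (0.85), Fgfr4 (0.81), Igsf1 (0.78), Klhl41 (0.77) and Rerg (0.76). Fgfr4 encodes a fibroblast growth factor receptor of muscle progenitors and Klhl41 a Kelch protein of the sarcomere. Without young serum 3 the r was 0.78 for Vwa3b, 0.69 for Fgfr4, 0.93 for Igsf1, 0.84 for Klhl41 and 0.73 for Rerg. For Myh8 they were Trpc4ap (0.89), Btbd2 (0.84), Cfap74 (0.80), Mb21d2 (0.79) and Tafa5 (0.79), none of them a sarcomere gene. For Myl4 they were Actr10 (0.94), Ethe1 (0.88), Pkig (0.87), Nol3 (0.85) and Vdac1 (0.84). Ethe1 and Vdac1 encode mitochondrial proteins, an enzyme of sulphide breakdown and a channel of the outer membrane. For Actc1 they were Gatb (0.87), Myog (0.84), Foxo6os (0.84), Magix (0.82) and Stard10 (0.81), and the r of Myog was 0.84 without saline 2, with a rho of 0.56 over all libraries. For Tnnt2 they were Rwdd2b (0.80), Pdk4 (0.76), Slit1 (0.75), Fbxl22 (0.74) and Myl6b (0.73), of which Pdk4 encodes a kinase that restrains pyruvate oxidation and Myl6b an alkali myosin light chain. No member was among the 5 most alike genes of another member.

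Denervated fibres are known to re-express some developmental genes, so genes that respond to loss of the nerve were counted. Of 14 genes 12 passed the filter, and 0 of 12 passed the test in each comparison, with 5 higher and 7 lower in each. The median log2 difference was -0.15 in young serum against saline, -0.06 in EV-depleted serum against saline and -0.04 in EV-depleted serum against young serum. Musk, the receptor kinase of the neuromuscular junction, averaged 19.96 ± 9.55 CPM in EV-depleted serum (SD, n = 3), 24.1 ± 5.81 CPM in young serum (SD, n = 4) and 10.3 ± 4.78 CPM in saline (SD, n = 4). Its log2 difference was 1.19 in young serum against saline, with an adjusted p of 0.180, and 1.46 without saline 2, with an adjusted p of 0.0459. Array weights over all libraries also called it, at 1.32 (adjusted p = 0.00674). In young serum against saline 251 of 13187 genes were called without saline 2, and 3441 of 13187 with array weights. The next genes there were Fbxo32, a ubiquitin ligase of muscle atrophy, at 0.61 and Hdac4, a histone deacetylase that rises after denervation, at 0.49. Against saline, EV-depleted serum libraries had Chrne, the adult subunit of the acetylcholine receptor, at a difference of -0.77, Musk at 0.88 and Ncam1 at 0.45. Against young serum Chrne differed by -0.33, Musk by -0.32 and Hdac4 by -0.18.

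A further list held 14 cardiac and developmental muscle genes outside the 5 members, of which 8 passed the filter and 4 were not analysed here. Of the 8, 0 passed the test in each comparison. They were 3 higher and 5 lower in young serum against saline (median -0.11; 6 and 2 without saline 6, median 0.24), 6 and 2 in EV-depleted serum against saline (0.44), and 7 and 1 in EV-depleted serum against young serum (0.51). Xirp1, an actin-binding protein of growing and injured fibres, measured 189 ± 37.5 CPM in EV-depleted serum (SD, n = 3), 141 ± 17.3 CPM in young serum (SD, n = 4) and 95.8 ± 11.1 CPM in saline (SD, n = 4). Its adjusted p was 0.122 in EV-depleted serum against saline, for a log2 difference of 0.96, and 0.180 in young serum against saline, for 0.56. Ankrd1, a stretch-responsive protein of the sarcomere, averaged 24.9 ± 7.73 CPM in EV-depleted serum (SD, n = 3), 10.9 ± 4.45 CPM in young serum (SD, n = 4) and 7.94 ± 2.96 CPM in saline (SD, n = 4). Its log2 difference was 1.56 in EV-depleted serum against saline, with an adjusted p of 0.243, 0.42 in young serum against saline and 1.15 in EV-depleted serum against young serum. Csrp3, a Z-disc protein, differed by -0.53 in young serum against saline and 0.99 in EV-depleted serum against young serum. Xirp1 differed by 0.40 in that last comparison. Tnni3, the cardiac troponin I gene, was at 0.591 CPM or less in all 11 libraries.

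Spindle fibres are a known adult site of developmental myosins, and 5 spindle-related genes passed the filter. Their sum was 7.23 to 14.5 CPM in EV-depleted serum, 3.53 to 11.8 CPM in young serum and 4.80 to 14.5 CPM in saline libraries, so the groups overlapped. Of the 5, 0 passed the test in each comparison. Etv4, a transcription factor of the spindle, differed by -0.37 in young serum against saline, -0.76 in EV-depleted serum against saline and -0.39 in EV-depleted serum against young serum. Myh7b, a slow-tonic myosin gene also held in the list above, measured 2.31 to 8.21 CPM in EV-depleted serum, 0.128 to 4.67 CPM in young serum and 0.196 to 6.36 CPM in saline libraries. Its log2 difference was 1.17 in EV-depleted serum against saline and 1.10 in EV-depleted serum against young serum. Egr3 differed by -0.23 in young serum against saline, 0.24 in EV-depleted serum against saline and 0.46 in EV-depleted serum against young serum, and Myh6 by -0.21 in young serum against saline. With array weights Egr3 in EV-depleted serum against saline was at 0.75, with an adjusted p of 0.0287, and Etv4 at -1.04, with an adjusted p of 0.00920. That weighting called 1794 of 13187 genes in this comparison. The signs of Egr3 and Myh6 in young serum against saline turned round under other settings. The part of spindles in the levels of the members was not tested.

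Marker genes of other cell types, all of which passed the filter, are given beside these values. Over 9 macrophage genes the summed level was 111 to 143 CPM in EV-depleted serum, 74.9 to 209 CPM in young serum and 180 to 721 CPM in saline libraries, and 9 of 9 were lower in each serum group than in saline, with 0 passing the test. The count was the same without saline 4, without saline 6 and without both, while the median log2 difference was -0.67 in EV-depleted serum and -0.58 in young serum without saline 4, against -1.02 and -0.89 with all libraries. Over 5 adipocyte genes it was 133 to 171 CPM in EV-depleted serum, 80.3 to 200 CPM in young serum and 151 to 2684 CPM in saline libraries, with 5 of 5 lower in each serum group. The size of the difference in both serum groups, and the count in young serum, rested on saline 4. Without it the median log2 difference was -0.38 in EV-depleted serum (5 of 5 lower) and -0.25 in young serum (3 lower and 2 higher), against -1.41 and -1.35 with all libraries, and without saline 4 and 6 there were 3 higher and 2 lower in each serum group. Over 5 red cell genes it was 255 to 282 CPM in EV-depleted serum, 89.1 to 250 CPM in young serum and 191 to 1488 CPM in saline libraries, with 4 of 5 lower in EV-depleted serum and 5 of 5 lower in young serum. Without saline 6 these counts were the same but the median difference was -0.14 in EV-depleted serum and -0.93 in young serum, against -0.52 and -1.22 with all libraries. Without saline 4 and 6, 5 of 5 were higher in EV-depleted serum than in saline, with a median of 0.12. Over 5 smooth muscle genes, a tissue that makes other actins and myosins, it was 101 to 178 CPM in EV-depleted serum, 124 to 181 CPM in young serum and 98.3 to 312 CPM in saline libraries. Of these, 4 of 5 were lower in each serum group than in saline, and without saline 4 the count was 1 of 5 in each. In whole muscle, fewer cells of a type and less RNA per cell cannot be told apart. The part of these tissues in the levels of the 5 genes was not tested.

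Over 270 refits of the 15 member differences under other settings or with libraries left out, 0 passed the threshold and the smallest adjusted p was 0.0580, for Myh3 in EV-depleted serum against saline with libraries weighted by their quality. That weighting called 3441 of 13187 genes in young serum against saline and 1794 of 13187 in EV-depleted serum against saline, where the equal weighting called 0. These counts over all genes are the background for the list counts, which are not results about the lists by themselves. In EV-depleted and young serum against saline the weighting called 8 and 5 of 15 adult sarcomere genes. It called 1 and 3 of 14 myogenic and fusion genes and 3 and 3 of 12 denervation-responsive genes. It also called 2 and 1 of 8 other cardiac and developmental genes, 2 and 0 of 5 spindle genes, 2 and 3 of 9 macrophage genes and 0 and 1 of 5 smooth muscle genes, with 0 of 5 adipocyte and 0 of 5 red cell genes. The sarcomere genes it called in EV-depleted serum were Myh1 at 1.51, Myh2 at 2.42 and Myl3 at 2.23, with Mylpf at -0.59, Tnnc2 at -0.61, Tnni2 at -0.60, Tnnt3 at -0.52 and Myl1 at -0.42. In young serum they were Mylpf at -0.75, Tnnc2 at -0.65, Tnni2 at -0.59, Tnnt3 at -0.48 and Myl1 at -0.37. Of the other genes named, the weighting called Chrne at -1.51, Musk at 0.88, Xirp1 at 0.98 and Ankrd1 at 1.74 in EV-depleted serum against saline, Hdac4 at 0.56, Nes at 0.45 and Xirp1 at 0.51 in young serum against saline, and Ankrd1 at 1.41 in EV-depleted serum against young serum.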

How the data were processed

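RNA sequencing of 11 tibialis anterior libraries was deposited by the authors as a CPM table (reads per 1000000 over 18269 genes, with an offset of 0.0001 seen in the values) and a TPM table. The deposited TPM equals CPM over genomic span, introns included, as read from the values, so levels and tests used CPM and per-length levels used GENCODE M21 transcript lengths. FastQC, STAR, DESeq2 and mm10 are named, without versions or roles, per the submitters' processing notes. Multi-mapping, strand and filtering steps are not given in the sources used here. Of low CPM values only 75.3% to 78.8% were whole multiples of 1 read within 0.1 reads, so no count model was run.

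The filter kept genes that reached 1 CPM in 3 or more libraries, and tests used log2(CPM + 1), a pseudocount of 1 that understates folds of low genes. limma 3.58.1 in R 4.3.3 fitted 3 groups in 1 model over 11 libraries (eBayes with a variance trend, two-sided, Benjamini-Hochberg adjusted at 0.05), after a test on simulated data. Alternatives changed the pseudocount (0.1, 0.5 and 5), filter, scaling, library weights, variance trend, groups in the fit and replicate block, and left out libraries. For genes outside the 5 members, and for the lists without saline 4 or 6, they were chosen after seeing the data. The members and the 10 gene lists were chosen with earlier results of these data known. Named were the 5 members, their adult partners, the 3 genes with the largest moderated t per list and comparison where none passed, and the 5 most correlated named genes per member. Figures used matplotlib 3.10.9 in Python 3.11.15.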

Additional observations from a re-analysis of the deposited data

Results flagged for a closer look

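Within the groups of 4 libraries, 136 sets of values, covering every gene named from the lists, the members, their adult partners and the members' family shares, were checked for a library whose gap to its nearest neighbour as a share of the group's range was above Dixon's 95% critical value. The check marked 24 of them, and the EV-depleted serum group, with 3 libraries, could not be checked. Chance marks about 1 in 20 sets of independent, normally distributed values. These sets were of CPM without a log and included genes that vary together and genes beside their own shares. The number marked therefore cannot be set against that rate. Among the members, Myh3 was marked in young serum 3 (55.3 CPM, others 3.28 to 4.72 CPM) and in saline 6 (9.85 CPM, others 1.17 to 1.57 CPM). Its share of sarcomeric myosin heavy chain RNA was marked in the same libraries, at 0.0943% in young serum 3 (others 0.00552% to 0.00712%) and 0.0282% in saline 6 (others 0.00205% to 0.00336%). Actc1 was marked in saline 2, at 162 CPM (others 55.5 to 71.3 CPM) and 0.459% of sarcomeric actin RNA (others 0.179% to 0.208%). Tnnt2 was marked in young serum 3 (5.77 CPM, others 2.02 to 2.50 CPM).

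Among the other genes named, the slow-fibre genes stood apart together in saline 6, with Myh7 at 944 CPM (others 43.2 to 67.8 CPM), Myl3 at 1159 CPM (others 30.8 to 146 CPM) and Tnnt1 at 467 CPM (others 19.6 to 25.7 CPM). Musk was marked in saline 2 (17.5 CPM, others 7.45 to 8.38 CPM), Egr3 in saline 4 (1.73 CPM, others 0.244 to 0.457 CPM) and Ncam1 in saline 3 (3.59 CPM, others 2.96 to 3.05 CPM). The adipocyte genes were marked together in saline 4, with Fabp4 at 1543 CPM (others 125 to 256 CPM), Plin1 at 381 CPM (others 6.58 to 16.2 CPM), Cidec at 362 CPM (others 10.2 to 18.7 CPM), Adipoq at 320 CPM (others 8.76 to 28.8 CPM) and Lep at 78.4 CPM (others 0.813 to 5.03 CPM). So were the smooth muscle genes Acta2 at 136 CPM (others 41.1 to 56.4 CPM) and Myh11 at 65.6 CPM (others 22.7 to 26.8 CPM) and the macrophage gene Adgre1 at 20.8 CPM (others 2.67 to 3.72 CPM). In saline 6 the haemoglobin genes Hbb-bs at 1121 CPM (others 79.6 to 180.0 CPM) and Hbb-bt at 62.3 CPM (others 8.44 to 17.0 CPM) were marked, and in young serum 1 Actg2 at 1.94 CPM (others 0.313 to 0.562 CPM). By library, saline 4 was marked 9 times, saline 6 7 times, young serum 3 and saline 2 3 times each, and saline 3 and young serum 1 1 time each.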

How the results depend on the processing

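Of 270 refits of the member differences, 19 turned the sign and 0 passed the threshold. Changing the filter, the variance trend or the groups in the fit leaves a difference as it is. Those refits could not turn a sign, so the 19 come from the remaining settings. Tnnt2 turned to 0.040 in young serum against saline and 0.00867 in EV-depleted serum against saline with a replicate block, and in EV-depleted serum against young serum to -0.031 with that block and -0.26 with array weights. Array weights also turned Myh3 to 0.48 in EV-depleted serum against young serum. In young serum against saline Egr3 turned to 0.088 with array weights and 0.053 without saline 4 and 6, and Myh6 to 0.45 with array weights, 0.48 with the replicate block and 0.080 without both libraries. With 1 library left out at a time, Tnnt2 ranged between -0.35 and 0.034 in young serum against saline, between -0.18 and 0.15 in EV-depleted serum against saline, and between -0.10 and 0.29 in EV-depleted serum against young serum. In the last comparison Myh3 ranged between -0.73 and 0.65 and Myl4 between -0.19 and 0.33. In young serum against saline Egr3 ranged between -0.36 and 0.017 and Myh6 between -0.59 and 0.20. Settings for genes outside the 5 members, and the list counts without saline 4 or 6, were chosen after seeing the data. Without saline 4 and 6, Tagln turned to 0.061 in EV-depleted serum and 0.22 in young serum against saline, and Adipoq to 0.11 and 0.24. In EV-depleted serum against saline Hbb-bs turned to 0.022 with array weights and 0.12 without both libraries, Hba-a2 to 0.029 and 0.093, and Hbb-bt to 0.073 and 0.11. Without saline 4 or saline 6, Actg2 ranged between -0.49 and 0.059 in EV-depleted serum and between -0.49 and 0.058 in young serum against saline, and Cnn1 between -0.54 and 0.046 in EV-depleted serum. The cause was not tested. Over all genes, calls numbered 0 to 251 (251 without saline 2) in young serum against saline and 0 to 5 in EV-depleted serum against saline with 1 library left out. Array weights called 3441 and 1794 genes there and 24 in EV-depleted serum against young serum. In EV-depleted serum against saline the replicate block called 6 genes, and 2 were called without saline 4 and 6. Young serum 1 and saline 6 have no same-numbered library in another group, so the block gives them no part in the differences. With the replicate block Myh3 was at 2.41 in young serum against saline (adjusted p = 0.277). In EV-depleted serum against saline it was at 1.82, the value without saline 6. The block values of Myh3 against saline thus leave out its highest saline library. Same-numbered libraries had correlations between -0.277 and 0.3. Differently numbered libraries were not compared, so whether the numbers pair libraries cannot be told from these values. The lowest Myh3 value rested on about 46 reads and the highest on about 2122. The part of counting error in the spread was not tested.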

Other observations

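Of 9 macrophage genes 9 were lower in each serum group than in saline, with 0 passing the test. In young serum against saline the macrophage genes Lyz2 (lysozyme) at -1.17, C1qa at -1.08 and C1qc at -0.89 on the log2 scale had the largest moderated t, C1qa and C1qc encoding complement subunits. Without saline 4 these were at -1.03, -0.73 and -0.58. In EV-depleted serum against saline they were Cd74 (the invariant chain of antigen presentation) at -1.87, Csf1r (the macrophage growth factor receptor) at -0.84 and C1qc at -0.99 (-1.35, -0.65 and -0.68 without saline 4), and in EV-depleted serum against young serum Cd74 at -0.56, Csf1r at -0.24 and Adgre1 at -0.31. The adipocyte gene Fabp4, a fatty acid binding protein, was at -1.31 in EV-depleted serum and -1.51 in young serum, each against saline, followed by Cidec at -1.72 and -1.44 and Adipoq at -1.48 and -1.35 in the same order. These sizes rested on saline 4, which had 1543 CPM of Fabp4 against 125 to 256 CPM in the other saline libraries. Without it Fabp4 was at -0.51 and -0.71, Cidec at -0.54 and -0.26 and Adipoq at -0.38 and -0.25. Between EV-depleted serum and young serum the adipocyte values were -0.82 for Lep, -0.39 for Plin1 and 0.20 for Fabp4.

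Haemoglobin genes were lower in young serum than in saline, Hba-a1 at -1.22, Hba-a2 at -1.13 and Hbb-bt at -1.53, with 0 passing the test. For EV-depleted serum against saline Hbb-bs was at -0.89, Hba-a2 at -0.52 and Hbb-bt at -0.72. Saline 6 had 1121 CPM of Hbb-bs against 79.6 to 180.0 CPM in the other saline libraries, and without it Hbb-bs was at -0.12, Hba-a2 at -0.30 and Hbb-bt at -0.14, while young serum against saline was at -0.91 for Hba-a2 and -0.95 for Hbb-bt. In EV-depleted serum against young serum Alas2, the first enzyme of haem synthesis in red cells, was at 0.53, Hba-a1 at 0.81 and Hba-a2 at 0.61. Of the smooth muscle genes, Tagln was at -0.58 against saline in EV-depleted serum and at -0.43 in young serum, Cnn1 at -0.28 in EV-depleted serum, Myh11 at 0.40 in young serum and Actg2 at -0.28 in both. Without saline 4 Tagln was at -0.29 in EV-depleted serum and -0.13 in young serum, Cnn1 at 0.046, Myh11 at 0.74 and Actg2 at 0.059 and 0.058. Between EV-depleted serum and young serum Myh11 was at -0.21, Tagln at -0.16 and Acta2 at -0.13. Parvalbumin (Pvalb), the calcium buffer of fast fibres, averaged 8199 ± 1639 CPM in EV-depleted serum (SD, n = 3), 8559 ± 1300 CPM in young serum (SD, n = 4) and 15329 ± 4038 CPM in saline (SD, n = 4), with adjusted limma p-values of 0.317 and 0.180 against saline. The next fast-muscle values were 0.45 for Myh4 and 0.21 for Atp2a1 in young serum against saline, and -0.36 for Ckm and -0.14 for Actn3 in EV-depleted serum against saline. With array weights Pvalb was called at -1.07 in EV-depleted serum and -0.94 in young serum against saline, as were Cd74 at -1.27 and Csf1r at -0.75 in EV-depleted serum and C1qc at -0.72 and Myh11 at 0.62 in young serum. That weighting called 1794 of 13187 genes in EV-depleted serum and 3441 of 13187 in young serum, each against saline. Between EV-depleted serum and young serum Actn3 was at -0.30, Atp2a1 at -0.26 and Myh4 at -0.30.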
